A study of Bos taurus with 48 samples.

Results

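TDH (ENSBTAG00000000011) encodes L-threonine 3-dehydrogenase, and its read count was followed in 48 samples of subcutaneous adipose tissue from 24 Norwegian Red heifers. It is 1 gene of the 24616 gene rows counted in each sample. TDH was chosen on its measured pattern over dietary energy and sampling time, so its levels and fold changes over diet and time are given as a description, with their spread and without a test. Its relation to genetic group and the rank of each heifer across the sampling times did not enter that choice, and these were tested.

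The heifers were raised on 1 of 4 diets from 3 months of age until they were found to be pregnant. The diets crossed high (HE) or low (LE) energy with high (HP) or low (LP) protein, and the resulting groups LPHE, HPHE, LPLE and HPLE held 6 heifers each. Energy supply was set through the roughage, which was rationed and of lower quality for LE heifers. Protein supply was set through both the roughage and the type of concentrate. The LP concentrate held more starch than the HP concentrate, so protein and starch cannot be told apart in the comparison of HP with LP. On these diets HE heifers also took in more crude protein than LE heifers. Energy and protein intake thus cannot be told apart in the comparison of HE with LE. As groups, HE heifers also entered puberty earlier than LE heifers. By the age of the first biopsy they were heavier, taller and in higher body condition. Intake, time since puberty, body size and fatness therefore cannot be told apart in the comparison of HE with LE at that age. Each diet held 3 heifers of a high milk-yield line (HMY) and 3 of a line with low occurrence of clinical mastitis (LCM). Every heifer was biopsied at 12 months of age, on its experimental diet, and again in month 7 of gestation, at 20 to 24 months of age, when all 24 received a shared low-energy pregnancy diet. Sampling time therefore cannot be told apart from age, pregnancy and the change of feed, and the month 7 comparison is between heifers with different earlier diets on the same current feed. LE heifers grew more slowly and conceived later, so in month 7 they were also older than HE heifers and had spent longer on the experimental diets. Earlier energy and protein intake, age and length of feeding cannot be told apart there.

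Threonine dehydrogenase is a mitochondrial enzyme that oxidizes threonine, with NAD+ as the acceptor, to 2-amino-3-ketobutyrate. A partner enzyme, GCAT, then splits this intermediate into glycine and acetyl-CoA. The route is one of several by which mammals break down threonine, and it joins an essential amino acid to glycine, to the one-carbon units carried by folate, and to acetyl-CoA, the building block of fatty acids. The human TDH gene is an inactive pseudogene, whereas cattle, pigs and rodents carry a functional enzyme.

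Reads assigned to genes ranged from 14815595 to 59809633 per sample at 12 months and from 22430093 to 61027456 in month 7. TDH itself received 19 to 3669 counts per sample at 12 months (median 343) and 22 to 510 in month 7 (median 152), so it was counted in every sample. Levels are given in CPM, the counts scaled to a common library size, after normalization across all 48 samples, a unit that compares samples for 1 gene but is not corrected for gene length. In bulk tissue, fewer cells that express TDH and less TDH RNA per cell cannot be told apart.

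At 12 months TDH was high in most heifers on the HE diets. In LPHE heifers the lowest, median and highest level were 1.90, 42.1 and 81.0 CPM, with a mean of 41.5 ± 26.3 CPM (SD, n = 6). In LPLE heifers they were 0.952, 5.38 and 7.15 CPM, with a mean of 4.57 ± 2.77 CPM (SD, n = 6). Of the LPHE heifers, 5 of 6 lay above all 6 LPLE heifers, and the sixth, heifer 12, lay inside the LPLE range. In the HP diets the contrast was smaller and the ranges overlapped further. HPHE heifers had 8.50, 23.5 and 47.6 CPM as lowest, median and highest level (mean 26.7 ± 17.2 CPM, SD, n = 6). HPLE heifers had 2.12, 12.2 and 25.5 CPM (mean 11.9 ± 8.97 CPM, SD, n = 6). Only 3 of 6 HPHE heifers exceeded all HPLE heifers, and 2 HPLE heifers lay below all HPHE heifers.

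In month 7 of gestation the order of the energy groups had turned, on a much lower scale. LPHE heifers had 0.766, 4.09 and 6.27 CPM as lowest, median and highest level (mean 3.55 ± 2.27 CPM, SD, n = 6). LPLE heifers had 1.34, 7.91 and 15.8 CPM (mean 8.16 ± 5.05 CPM, SD, n = 6). The ranges overlapped widely, with 2 LPHE heifers below all LPLE heifers. HPHE heifers had 0.724, 2.27 and 5.03 CPM (mean 2.65 ± 1.75 CPM, SD, n = 6). HPLE heifers had 1.05, 4.10 and 6.85 CPM (mean 4.08 ± 2.24 CPM, SD, n = 6). Only 1 HPHE heifer lay below all HPLE heifers.

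**Figure D1:**
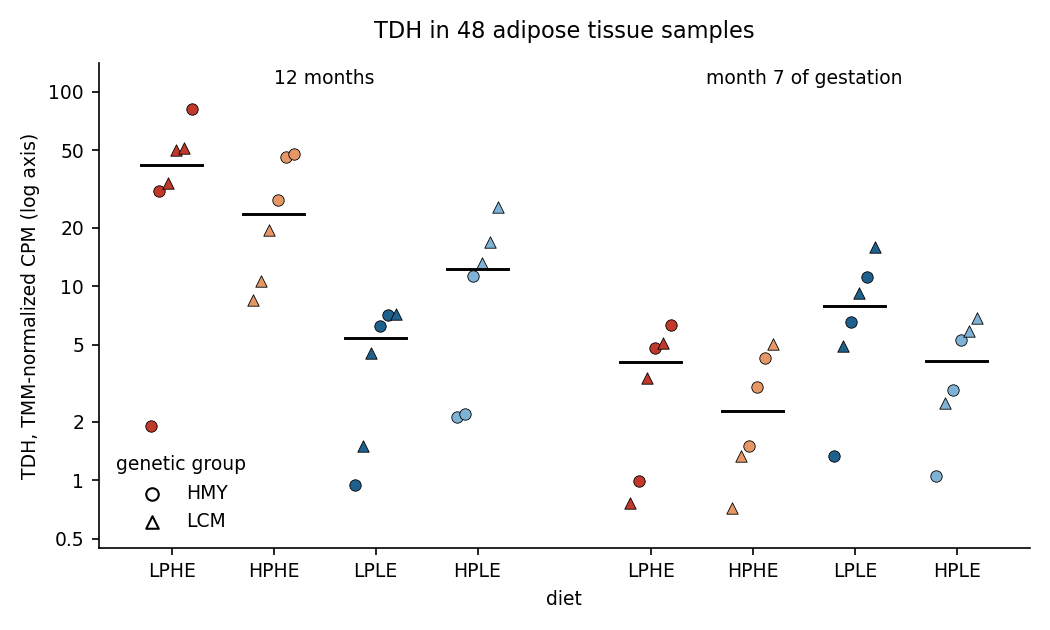
TDH level in TMM-normalized CPM on a log axis for each of the 48 samples, by diet and sampling time. Circles are HMY heifers, triangles are LCM heifers and bars are medians of 6 heifers. The LPHE samples at 12 months lie between 30.9 and 81.0 CPM apart from heifer 12 at 1.90 CPM, and no sample in month 7 exceeds 15.8 CPM.

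Ordered by median, the 8 groups ran from LPHE and HPHE at 12 months, through HPLE at 12 months, LPLE in month 7, LPLE at 12 months, HPLE in month 7 and LPHE in month 7, to HPHE in month 7. Each neighbouring pair in this order overlapped, so no neighbours were separated beyond their spread. Heifers on the same diet at the same time differed with a pooled SD of 1.18 on the log2 scale.

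The edgeR fit put sizes on these differences, each as a log2 fold change between groups with its standard error. At 12 months, LPHE exceeded LPLE by 3.15 (SE 0.70), or 8.88-fold, which placed TDH 18th of 13339 genes by size of the difference. HPHE exceeded HPLE by 1.20 (SE 0.70) at the same age. With both protein levels pooled, HE exceeded LE by 2.18 (SE 0.49), or 4.52-fold. Without heifer 12 the LPHE to LPLE difference was 3.41 and the pooled difference was 2.27. The protein contrasts at 12 months had opposite signs in the energy groups, with HPHE minus LPHE at -0.60 (SE 0.66) and HPLE minus LPLE at 1.35 (SE 0.67). The former ranged from -0.90 without heifer 12 to -0.14 without heifer 3, so single heifers decided its size.

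In month 7 the fitted energy differences were negative and nearer to their standard errors. LPHE minus LPLE was -1.18 (SE 0.58), HPHE minus HPLE was -0.60 (SE 0.57), and HE minus LE was -0.89 (SE 0.41), which placed TDH 187th of 13403 genes by size. The protein contrasts were -0.43 (SE 0.57) for HPHE minus LPHE and -1.01 (SE 0.57) for HPLE minus LPLE. Leaving out 1 heifer moved HPHE minus HPLE to between -0.92 (without heifer 15) and -0.38 (without heifer 6), and HPHE minus LPHE to between -0.71 (without heifer 15) and -0.13 (without heifer 20). The change of the energy difference between the sampling times was -3.09 (SE 0.63) over both protein levels, 31st of 13718 genes by size. It was -4.35 (SE 0.92) within the LP diets and -1.83 (SE 0.89) within the HP diets.

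Following each heifer showed where the turn lay. TDH was lower in month 7 than at 12 months in all 12 HE heifers, whereas among LE heifers it was lower in 5 and higher in 7. Among LPHE heifers, the level went from 81.0 to 4.80 CPM in heifer 3, from 34.1 to 0.766 CPM in heifer 5, from 51.1 to 5.12 CPM in heifer 16, from 30.9 to 6.27 CPM in heifer 20 and from 50.2 to 3.37 CPM in heifer 24. Heifer 12, already low at 12 months, went from 1.90 to 0.989 CPM. Among HPHE heifers, it went from 46.4 to 4.29 CPM in heifer 2, from 10.6 to 0.724 CPM in heifer 6, from 47.6 to 3.03 CPM in heifer 11, from 19.4 to 5.03 CPM in heifer 15, from 27.6 to 1.51 CPM in heifer 19 and from 8.50 to 1.34 CPM in heifer 23. The mean log2 change was -3.09 ± 1.45 (SD, n = 6) in LPHE and -3.03 ± 0.80 (SD, n = 6) in HPHE, and these means differed by less than the spread between heifers.

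The LE heifers did not share a direction. In LPLE heifers the level went from 1.5 to 4.92 CPM in heifer 8, from 6.24 to 11.1 CPM in heifer 10, from 7.15 to 15.8 CPM in heifer 14, from 0.952 to 1.34 CPM in heifer 18 and from 4.51 to 9.26 CPM in heifer 22, while heifer 4 was nearly level at 7.09 and 6.56 CPM. In HPLE heifers it went from 13.2 to 5.84 CPM in heifer 7, from 16.9 to 2.51 CPM in heifer 13, from 11.3 to 1.05 CPM in heifer 17 and from 25.5 to 6.85 CPM in heifer 21. The other HPLE heifers started low and ended higher, at 2.12 and 2.93 CPM in heifer 1 and at 2.20 and 5.27 CPM in heifer 9. The mean log2 change was 0.75 ± 0.55 (SD, n = 6) in LPLE and -1.15 ± 1.61 (SD, n = 6) in HPLE.

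**Figure D2:**
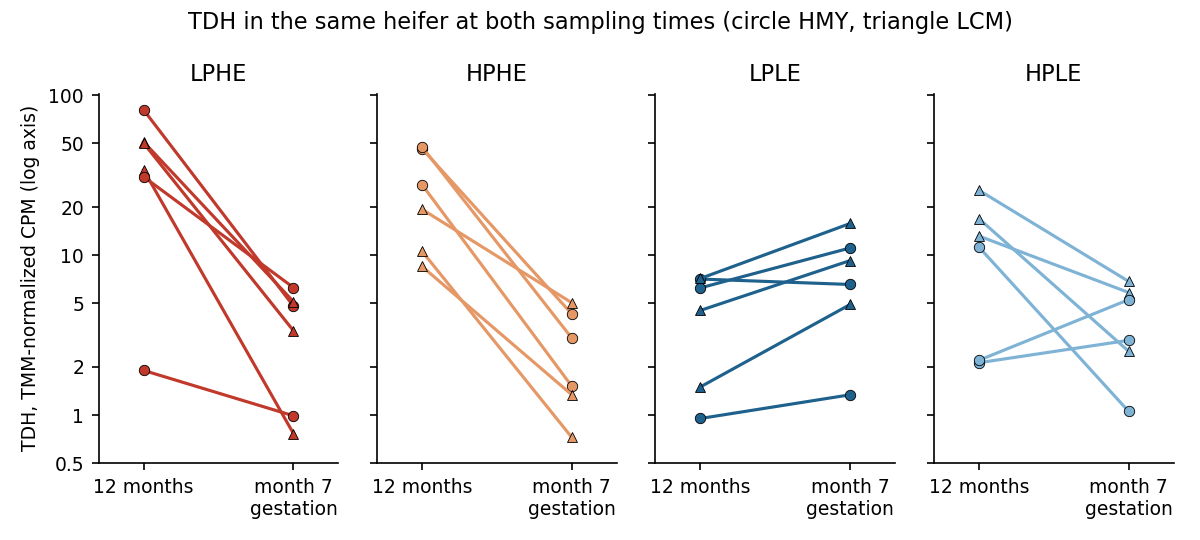
TDH level in TMM-normalized CPM on a log axis at 12 months and in month 7 of gestation, with a line for each heifer and a panel for each diet. All 12 lines of the HE diets descend, 5 of 6 LPLE lines ascend, and the HPLE lines split into 4 that descend and 2 that ascend.

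The fitted change from 12 months to month 7 was -3.44 (SE 0.48) in HE heifers, a 10.9-fold lower level and 22nd of 13718 genes by size. In LE heifers it was -0.35 (SE 0.44), where LPLE at 0.82 (SE 0.62) and HPLE at -1.52 (SE 0.63) had opposite signs. Month 7 minus 12 months was -3.53 (SE 0.68) in LPHE and -3.35 (SE 0.68) in HPHE.

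Whether a heifer that was high for its diet at 12 months was also high in month 7 was tested on deviations from the diet mean in log2 CPM. Over 24 heifers, Pearson's r was 0.53 (permutation p = 0.0119) and Spearman's rho was 0.47 (permutation p = 0.0296), with heifers permuted within diets and two-sided p-values. Without heifers 1 and 12, the 2 farthest from the median at 12 months, r was 0.48 and rho was 0.41. Within the HE heifers r was 0.61 (n = 12, permutation p = 0.0381) but rho was 0.41 (permutation p = 0.212), and within the LE heifers r was 0.44 (n = 12, permutation p = 0.159). After Benjamini-Hochberg adjustment over these 3 correlations, the permutation p-values for r were 0.0358 for all heifers, 0.0572 for HE and 0.159 for LE, so the relation passed 0.05 over all heifers but in neither energy group alone. Leaving out heifer 12 alone gave r = 0.46 (permutation p = 0.0373).

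**Figure D3:**
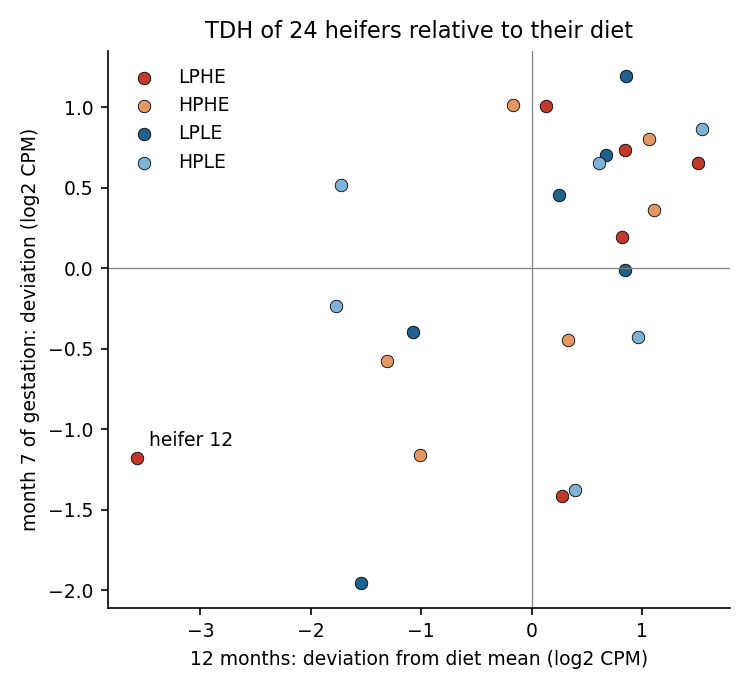
Deviation of each heifer's TDH level from the mean of its diet, in log2 CPM, at 12 months (horizontal axis) and in month 7 of gestation (vertical axis), coloured by diet. The 24 points give r = 0.53, and heifer 12 lies farthest to the left.

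No difference in TDH between the genetic groups passed a test. At 12 months the 12 HMY heifers had 0.952, 9.17 and 81.0 CPM as lowest, median and highest level, and the 12 LCM heifers had 1.5, 15.1 and 51.1 CPM. The mean of HMY minus LCM on the log2 scale was -0.43 (two-sided exact permutation test within diets, p = 0.467), and the edgeR likelihood ratio test gave -0.08 (SE 0.49, 95% interval -1.05 to 0.88, FDR = 0.963). In month 7 the values were 0.989, 3.66 and 11.1 CPM in HMY and 0.724, 4.98 and 15.8 CPM in LCM. That difference was -0.19 (exact permutation p = 0.638), and the edgeR fit gave -0.17 (SE 0.41, 95% interval -0.96 to 0.63, FDR = 0.964). With both times adjusted together, each exact permutation p was 0.638. These intervals still allow a difference of about 1 log2 unit at 12 months. Looked at by diet after the values were seen, HMY and LCM heifers overlapped in 6 of 8 diet and time groups. In HPHE at 12 months HMY heifers ranged from 27.6 to 47.6 CPM above LCM heifers at 8.50 to 19.4 CPM. In HPLE at 12 months the order was opposite, with HMY at 2.12 to 11.3 CPM and LCM at 13.2 to 25.5 CPM. With 3 heifers on each side, these separations were not tested.

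The neighbouring steps of the pathway were described from lists of 50 genes, of which 15 could be linked to a gene row, all of them by way of the study's own lists of differentially expressed genes (DEG) from these samples. Their counts are therefore not independent evidence of direction. GCAT, which completes the TDH reaction, was not analysed here, nor were GLDC, AMT and GCSH of the glycine cleavage system or SDS, the threonine and serine dehydratase. A gene was called at a false discovery rate (FDR) under 0.05 in edgeR's likelihood ratio test over all genes tested. For HE against LE this called 9.17% of all genes at 12 months and 5.98% in month 7. The change of the energy difference with time called 18.4%, and month 7 against 12 months called 46.3% in HE heifers and 5.69% in LE heifers. These comparisons use the same samples in different combinations, so they are not separate evidence.

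Of the 18 genes listed for threonine and glycine breakdown, 4 were linked, and at 12 months 2 were higher and 1 lower in HE. DLD, the dihydrolipoamide dehydrogenase of the glycine cleavage system and of several 2-oxoacid dehydrogenases, was higher by 0.51 (SE 0.16, edgeR FDR = 0.0218). ALAS1, which condenses glycine with succinyl-CoA in the first step of heme synthesis, was higher by 0.43 (SE 0.11, edgeR FDR = 0.00433). GATM, which transfers an amidino group to glycine on the way to creatine, was lower, at -0.74 (SE 0.18, edgeR FDR = 0.00311). GLYAT, which conjugates acyl groups to glycine, was at 0.52 (SE 0.26, edgeR FDR = 0.195). The median log2 difference of the 4 was 0.47, against -0.03 over all genes tested.

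In month 7, only GLYAT of these 4 passed the test, lower in HE by a log2 difference of -1.20 (SE 0.23, edgeR FDR = 8.17e-05). DLD was at -0.40 (edgeR FDR = 0.067), ALAS1 at -0.17 (edgeR FDR = 0.332) and GATM at 0.34 (edgeR FDR = 0.0574). The 4 genes' median was -0.29, against 0.01 over all genes. The change of the energy difference with time passed the test in all 4, downward for DLD (-0.90), ALAS1 (-0.60) and GLYAT (-1.69) and upward for GATM (1.07). TDH's own values on these scales, 2.18, -0.89 and -3.09, were larger in size than those of the 4 genes at 12 months and over time, but not larger than GLYAT's in month 7.

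Levels by group showed that GLYAT, like TDH, was lowest in the HE heifers in month 7. GLYAT had a median of 282 CPM in LPHE and 253 CPM in HPHE at 12 months, and of 65.1 CPM and 52.0 CPM in month 7. In LPLE it had a median of 139 CPM at 12 months and 142 CPM in month 7, and in HPLE of 206 CPM and 123 CPM. GATM ran the other way, with medians of 45.7 CPM in LPHE and 50.3 CPM in HPHE at 12 months and of 87.0 CPM and 83.2 CPM in month 7.

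For serine synthesis, 1 of 3 listed genes was linked. PSAT1, phosphoserine aminotransferase, was higher in HE at 12 months by 0.78 (SE 0.23, edgeR FDR = 0.0151) and was at -0.52 (SE 0.28, edgeR FDR = 0.298) in month 7. None of the 8 genes listed for threonine supply and use could be linked.

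Lipogenic genes, which draw on acetyl-CoA, had the same signs as TDH in both energy comparisons, with smaller standard errors. All 8 listed genes were called higher in HE at 12 months, with a median of 1.07, and 7 of 8 were called lower in month 7, with a median of -1.30. ME1, malic enzyme, was the exception in month 7 at -0.70 (edgeR FDR = 0.106). FASN, fatty acid synthase, was at 0.55 (SE 0.18, edgeR FDR = 0.0334) at 12 months and at -1.64 (SE 0.31, edgeR FDR = 6.56e-05) in month 7. SCD, stearoyl-CoA desaturase, was at 1.08 (SE 0.24) and then at -1.48 (SE 0.34). ELOVL6, which elongates palmitate, was at 1.28 (SE 0.23) and then at -1.10 (SE 0.26). All 8 were called lower over time in HE heifers, with a median of -2.43, and none in LE heifers, with a median of -0.15. In LE heifers over time the largest of the 8 in size was FASN at -0.54 (edgeR FDR = 0.225).

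The calls nearest the threshold depended on single heifers and on the test. At 12 months, DLD was not called without heifer 1, 18, 19 or 24 (edgeR FDR 0.0504 to 0.0617). FASN at 12 months was not called when any of 11 heifers was left out (edgeR FDR 0.0521 to 0.0783) or by edgeR's quasi-likelihood F test (FDR = 0.0644), and with all 48 samples in the edgeR fit its FDR was 0.161. GLYAT at 12 months was called without heifer 7, at 0.77 (edgeR FDR = 0.00839). In month 7, THRSP, a nuclear protein tied to lipogenesis, was not called without heifer 1, 8 or 16 (edgeR FDR 0.0506 to 0.0729) or by the quasi-likelihood F test (FDR = 0.0634). By contrast, DLD was called in month 7 without heifer 11, 13, 18 or 20, GATM without heifer 15, 17, 18, 20 or 21, and ME1 without heifer 13 or 18.

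**Figure D4:**
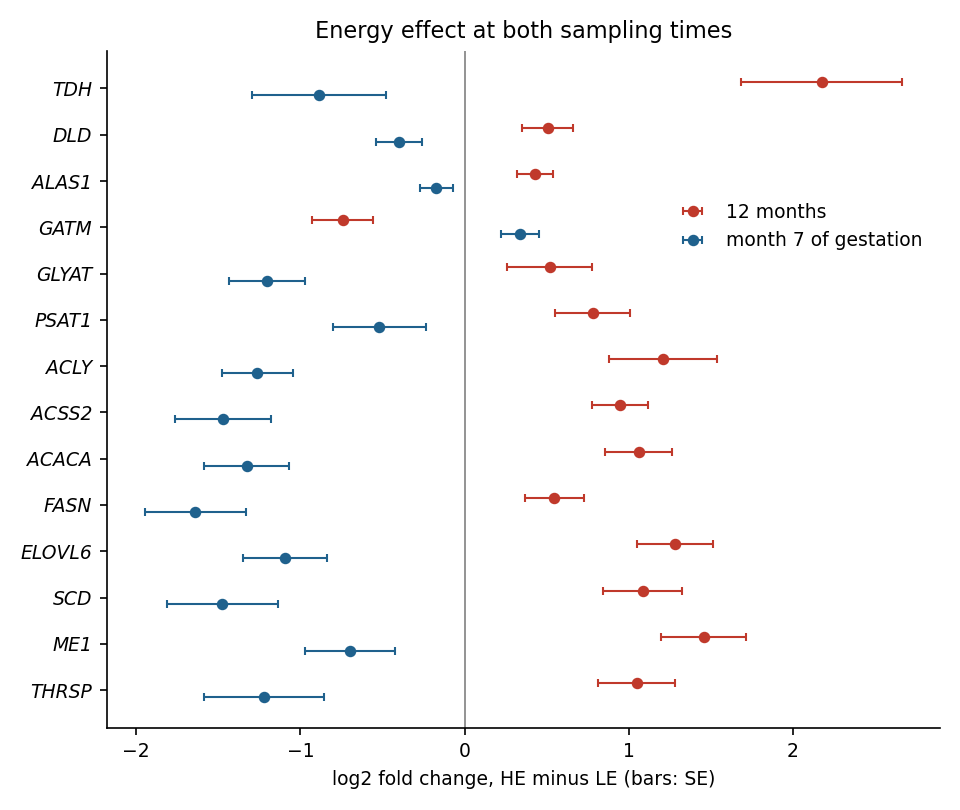
Fitted log2 fold change of HE minus LE for TDH and 13 linked genes of threonine and glycine breakdown, serine synthesis and lipogenesis at 12 months (red) and in month 7 of gestation (blue), with bars of 1 SE. TDH has the largest value at 12 months, 2.18, and is at -0.89 in month 7. GATM lies on the opposite side of 0 from the other genes at both times.

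The genes most like TDH were ranked by Pearson's r of log2 CPM over the 48 samples, which come from 24 heifers and share the diet and time differences that chose TDH. Of 13717 genes, 472 had r over 0.7 and 39 had r under -0.7. Among the 5 highest were GSTT1, a theta-class glutathione S-transferase (r = 0.87), and PRDX3, the mitochondrial thioredoxin-dependent peroxide reductase (r = 0.87). So were RFC3, a subunit of the clamp loader of DNA replication (r = 0.86), and ENSBTAG00000032217 (r = 0.86), which had no symbol in the study's tables. Ranking by Spearman's rho kept 2 of the 5 highest, with GSTT1 again first. At the other end were COL22A1, a collagen (r = -0.81), and KLF4, a zinc finger transcription factor (r = -0.76). ENSBTAG00000021289 (r = -0.81) and ENSBTAG00000018449 (r = -0.80), also at that end, had no symbol in the study's tables.

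GSTT1 was also first when the mean of each diet and time group was removed, with r = 0.76 over the 48 deviations. Its r with TDH was 0.94 over the 24 samples at 12 months and 0.71 over the 24 in month 7. At 12 months GSTT1 ranged from 64.1 to 186 CPM in LPHE, 67.5 to 136 CPM in HPHE, 33.0 to 72.6 CPM in LPLE and 43.9 to 104 CPM in HPLE. In month 7 it ranged from 16.8 to 49.5 CPM in LPHE, 18.3 to 31.8 CPM in HPHE, 33.8 to 101 CPM in LPLE and 27.4 to 59.7 CPM in HPLE. As with TDH, the LPHE heifers at 12 months were the highest by median and the HPHE heifers in month 7 the lowest, at 134 and 24.2 CPM. PRDX3 spanned a narrower range, from a median of 253 CPM in LPHE at 12 months to 98.5 CPM in HPHE in month 7.

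**Figure D5:**
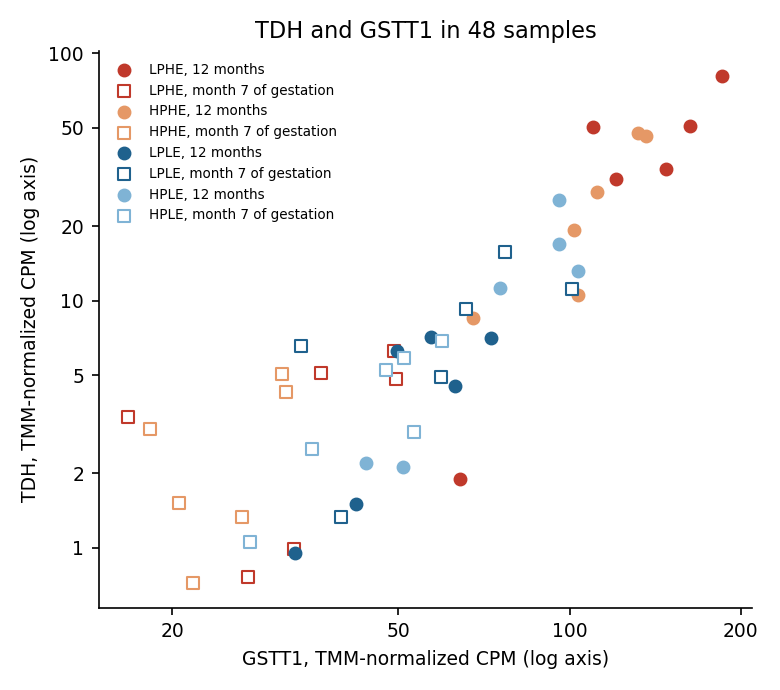
TDH level against GSTT1 level, both in TMM-normalized CPM on log axes, in the 48 samples. Filled circles are samples at 12 months, open squares are samples in month 7 of gestation, and colours are diets. The points rise together with r = 0.87.

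Markers of adipocytes, stroma and skeletal muscle, cell types that a biopsy could hold, were set beside TDH. Markers of epithelium or skin, endothelium, macrophages and other leukocytes, lymphocytes and blood were not examined here. The adipocyte, stromal and skeletal muscle markers used were also linked only through the study's tables of DEG from these samples. Their direction by diet at 12 months is therefore not independent evidence. CIDEC, a lipid droplet protein of adipocytes and the only 1 of 8 listed adipocyte markers that could be linked, was present in every sample. At 12 months it ranged from 1653 to 2798 CPM in LPHE, 1846 to 2617 CPM in HPHE, 810 to 2325 CPM in LPLE and 1115 to 2216 CPM in HPLE. In month 7 it ranged from 970 to 1719 CPM in LPHE, 876 to 1825 CPM in HPHE, 1354 to 1918 CPM in LPLE and 970 to 2096 CPM in HPLE. At 12 months its medians were 2035 CPM in LPHE against 1253 CPM in LPLE and 2486 CPM in HPHE against 1754 CPM in HPLE, higher in HE as for TDH. In month 7 they were 1572 CPM in LPHE against 1540 CPM in LPLE, the opposite order to TDH, and 1418 CPM in HPHE against 1659 CPM in HPLE. Its r with TDH over the 48 samples was 0.59.

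The summed stromal genes DCN and COL1A1, 2 of 3 listed, ranged at 12 months from 6925 to 22000 CPM in LPHE, 7631 to 15980 CPM in HPHE, 13080 to 42760 CPM in LPLE and 9878 to 26140 CPM in HPLE. In month 7 they ranged from 7280 to 24970 CPM in LPHE, 7696 to 32820 CPM in HPHE, 11370 to 18680 CPM in LPLE and 7996 to 42180 CPM in HPLE. Their medians were lower in HE than in LE heifers of the same protein level at 12 months and higher in month 7, opposite to TDH, and their r with TDH was -0.25. The part of the tissue's cell makeup in the TDH differences was not tested.

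The summed skeletal muscle genes ACTA1, MYH7, CKM and MYLPF, 4 of 6 listed, had an r with TDH of -0.13. They stood at 0.687 to 1.32 CPM in LPHE at 12 months, where TDH was highest, and their highest values in the other groups at that age were 43.2 CPM in LPLE, 86.3 CPM in HPHE and 97.8 CPM in HPLE. In month 7 the muscle sum reached 2.49 CPM in LPHE, 2.06 CPM in LPLE, 201 CPM in HPHE and 125 CPM in HPLE.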

How the data were processed

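PolyA-selected RNA from 48 biopsies was sequenced, and the authors deposited 1 table of raw read counts per gene for each sample. Per the labels and methods, reads were trimmed with cutadapt 1.3, aligned to UMD3.1 with TopHat2 2.0.12, handled with SAMtools and counted with HTSeq. Rows that name no gene were left out of library sizes. They included reads outside annotated genes, 21.02 to 27.71% at 12 months and 20.27 to 26.8% in month 7, and reads aligned to several places, 12.65 to 28.75% and 13.69 to 39.97%, so genes with near-identical copies may be undercounted. Gene symbols came from tables of the study, which named 1006 of 1101 IDs.

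Counts were fitted in edgeR 4.0.16 (R 4.3.3) with tagwise dispersions and a model of diet and genetic group, as in the study. TMM normalization and likelihood ratio tests were chosen here. Each sampling time was fitted alone for diet contrasts, and all 48 samples together for contrasts over time. The main fit over time held no heifer term, so it treated both samples of a heifer as independent. Genes needed 2 CPM in 3 samples, and Benjamini-Hochberg FDR was taken over all genes tested. Levels on the log2 scale are log2(CPM + 0.5). Named were TDH, every called gene of the lists, GCAT, GLDC, AMT, GCSH and SDS, and the 5 genes most and the 5 least like TDH. FASN, SCD and ELOVL6 stand for the lipogenic list. A few genes that this rule would name are not reported here. TDH, the lists and the tests were chosen with earlier results of these data known. Alternatives were DESeq2 1.42.0, the quasi-likelihood F test, other normalizations and filters, all samples in 1 fit, no genetic group, an FDR of 0.1, a heifer block and each heifer left out. Same-numbered samples came from the same heifer. Their deviations correlated at -0.06 to 0.58 (median 0.30), over 0.1 in 20 of 24 pairs. The code was tested on simulated counts.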

Additional observations from a re-analysis of the deposited data

Results flagged for a closer look

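Among the LPHE heifers at 12 months, heifer 12 stood far below the others for TDH, at 1.90 CPM against 30.9 to 81.0 CPM. Its gap to the nearest heifer was 0.73 of the group's whole range on the log2 scale, above Dixon's critical value for 6 samples. On the CPM scale the gap was 0.367 of the range and below that value. All 8 groups were screened on both scales, and this was the only value past it. Chance flags about 1 group in 20 on a given scale by this criterion. With 8 groups screened on both scales, 1 flag can therefore arise by chance. The same sample was also lowest of the 6 for GSTT1 (64.1 CPM against 110 to 186 CPM), PRDX3 (112 CPM against 222 to 290 CPM), PSAT1 (11.9 CPM against 16 to 34.7 CPM) and DLD (102 CPM against 167 to 294 CPM). Most of the lipogenic list was lowest in it too. These were SCD (6236 CPM against 12600 to 21180 CPM), ACSS2 (2528 CPM against 3601 to 4556 CPM) and ACACA (1394 CPM against 1719 to 3482 CPM). ELOVL6 (1019 CPM against 1266 to 3132 CPM) and ME1 (46.0 CPM against 92.5 to 326 CPM) were the others. It was highest of the 6 for GATM (85.8 CPM against 22.1 to 54.3 CPM) and for FASN (13030 CPM against 10080 to 12510 CPM). For ACLY (465 CPM against 244 to 1089 CPM), THRSP (4193 CPM against 3733 to 6414 CPM) and GLYAT (297 CPM against 191 to 402 CPM) it lay inside the range of the others. CIDEC was at 1726 CPM, second lowest of the 6. GSTT1 and PRDX3 were picked for their likeness to TDH over samples that include this one, so their low values here are not independent of TDH's. Why this sample differed was not tested.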

How the results depend on the processing

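Leaving out each heifer gave TDH log2 fold changes of 2.02 to 2.34 for HE minus LE at 12 months, -1.08 to -0.76 in month 7 and -3.27 to -2.96 for the change with time. HMY minus LCM ranged from -0.34 to 0.11 at 12 months and from -0.30 to 0.01 in month 7, so its sign depended on single heifers, and it was called under no alternative run. With the heifer as a replicate block, the change of TDH's energy difference was -3.13 (SE 0.50), and it was -3.36 in HE and -0.22 in LE heifers over time (-0.35 without the block). The block raised the genes called over time in LE heifers from 781 to 1563 and in HE heifers from 6346 to 7285. For the change of the energy difference, the block raised them from 2530 to 3669. It changed no call of a listed gene.

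Numbers of called genes depended more on the setting. With all 48 samples in the fit, HE against LE called 1880 genes at 12 months (1223 as reported) and 471 in month 7 (801 as reported). At an FDR of 0.1 these were 2037 and 1307, and 1247 over time in LE heifers. Leaving out a heifer gave 744 (without heifer 19) to 2015 (without heifer 15) at 12 months, 516 (without heifer 7) to 1115 (without heifer 18) in month 7, and 494 (without heifer 4) to 979 (without heifer 13) over time in LE heifers. For the amino acid, glycine and folate genes in month 7, the 1 call became 2 in DESeq2, where DLD passed, and 3 at an FDR of 0.1. Leaving out a heifer gave 1 to 3 there and 4 to 7 at 12 months, where 4 came without heifer 19. Of the calls on named genes, 595 of 600 under other settings and 1768 of 1800 with a heifer left out were on the same side of the threshold, and 0 reversed. TDH's counts, as low as 19, limit the precision of its lowest levels.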

Other observations

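With the mean of each diet and time group removed, 7 of 13717 genes had r over 0.7 with TDH across the 48 samples. Beside GSTT1, RFC3 and PRDX3, the 5 highest held SLC10A1, a bile acid transporter (r = 0.76), and CLDN10, a tight junction protein (r = 0.72). CLDN10 had a median of 264 CPM in LPHE and 87.8 CPM in HPHE at 12 months, against 10.3 CPM in LPLE and 17.7 CPM in HPLE. In month 7 its medians were 16.9 CPM in LPHE, 14.2 CPM in HPHE, 49.8 CPM in LPLE and 27.9 CPM in HPLE. SLC10A1 had a median of 8.88 CPM in LPHE and 1.66 CPM in LPLE at 12 months, and of 2.24 CPM and 2.45 CPM in month 7. COL22A1 ran opposite to TDH, with a median of 0.527 CPM in LPHE at 12 months and 6.18 CPM in HPHE in month 7. These genes were found by their likeness to TDH in the same samples, and their values are given as a description.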
